A study of Mus musculus with 40 samples.

Results

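The acute response to the fifth daily head injury was read from 6 of the 40 samples of the series, chosen by their labels: 3 samples taken 0.5 h after 5xCHI (samples 7, 8 and 31) and 3 taken 24 h after 4xCHI (samples 24, 25 and 40), which stand for the state just before the fifth injury. CHI is a closed-head injury, given here by dropping a weight on the intact skull under isoflurane, once a day. All mice were female 3xTg-AD mice on C57BL/6J, aged 2 to 4 months, a model of Alzheimer's disease whose alleles include human APP and MAPT transgenes with disease mutations. Each sample is bulk RNA of the left somatomotor cortex, 96.5 h after the first injury in the 5xCHI group and 96 h after it in the 4xCHI group. Both groups had received 4 injuries with anesthesia, and the 5xCHI group had received a further anesthesia, injury and handling 0.5 h before collection, so injury and anesthesia cannot be told apart in this comparison.

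Neurons that are strongly stimulated switch on immediate early genes within minutes. These encode inducible transcription factors such as Fos and Npas4, effectors such as Arc, and phosphatases such as Dusp1 that damp the MAPK signal again. Oligodendrocytes, the cells that wrap axons in myelin, are marked by myelin proteins and by the enzymes that make myelin lipids. In bulk tissue a lower level of such a marker can mean fewer cells of that type or less RNA per cell, and these cannot be told apart.

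Summed counts were 15926014 to 20171417 in the 6 samples, and every pair of samples within a group differed by more than sampling noise. The human MAPT transgene was read in all 6 samples, at 13.9 to 26.8 CPM (the gene's counts as a share of the library, scaled by TMM to library composition) before the fifth injury and 15.1 to 34.4 CPM after it, whereas human APP was listed at 0 in all 6. The cortical neuron markers Camk2a and Snap25 were abundant, at 2576.4 to 4303.9 and 2889.2 to 3133.2 CPM before the injury. Choroid plexus markers set 1 sample of each group apart: all 10 listed markers were highest in samples 24 and 31, and Ttr, the transthyretin that this tissue secretes, was at 785.4 CPM in sample 24 and 2420.6 CPM in sample 31 but at 3.32 to 24.0 CPM in the other 4. Transcripts of the mitochondrial genome made up 8.47% of the counts in sample 31 and 5.72 to 6.98% in the other 5. The samples also differ in number: samples 7 and 8 fall among samples 1 to 18 of the series and the other 4 among samples 19 to 40, so that within samples 19 to 40 the comparison is sample 31 alone against 3 samples.

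No gene passed the adjusted test. Of 15224 features tested by edgeR's quasi-likelihood test, 0 had a Benjamini-Hochberg adjusted p under 0.05, and the smallest adjusted p was 0.173, for Mex3d. DESeq2 called 1 feature, again Mex3d, with an adjusted p of 0.00799. An unadjusted p under 0.05 was found for 6.36% of features, of which 536 (3.52% of all) were higher and 433 (2.84%) lower 30 min after the fifth injury, and 3.52% and 2.84% are the background for the counts of listed genes that follow. The numbers of higher and lower features were 334 and 267 without sample 8, 342 and 390 without sample 7 and 293 and 344 without sample 24. With scaling by library totals alone they were 363 and 597, so the balance of higher against lower features depends on the scaling. The levels of 1514 features (9.94%) in the 3 samples after the injury were all above, and of 1480 (9.72%) all below, the 3 samples before it. Features with an unadjusted p under 0.05 differed in base composition, with a median GC content of 52.5% for the higher, 46.3% for the lower and 49.97% for all features. The part of GC content was not tested beyond the fit with GC and length trends removed, in which again 0 features passed. In that fit 420 features were higher and 616 lower at an unadjusted p under 0.05, so the balance turned, and the 4 endothelial markers past that threshold became 1.

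The inducible transcription factors were high in 1 of the 3 mice. Of 22 listed genes, 21 were tested (Atf3 had too few counts), and 4 were higher at an unadjusted p under 0.05 (Fosb, Npas4, Klf4 and Klf2) and 0 lower, against the background of 3.52% and 2.84%. Their median log2 fold change was 0.11, beside 0.01 over all features. In sample 8, 14 of the 21 lay above every pre-injury sample and 0 below, while in sample 7 these counts were 4 and 5, and in sample 31 they were 1 and 6. Over all features, 28.3 to 31.5% lay above and 27.6 to 28.7% below every pre-injury sample in these 3 samples, so the counts below in samples 7 and 31 are near the background. Without sample 8 the median was -0.37, and 0 of the 21 genes were past an unadjusted p of 0.05 in either direction. The median was -0.10 with 1 gene higher without sample 24, and 0.05 with 1 higher without sample 40. In sample 31 alone it was -0.50, and with the sample number ranges as a covariate 0.11, with 2 genes higher in the latter.

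Fosb, a Fos family partner of Jun proteins, was at 11.6, 27.0 and 12.7 CPM before the injury (samples 24, 25 and 40) and at 22.5, 207.5 and 19.1 CPM after it (samples 7, 8 and 31). Only sample 8 lay above the pre-injury range. The log2 fold change was 2.28 ± 0.76 (SE, n = 3 and 3), with an unadjusted p of 0.00541 and an adjusted p of 0.780 from edgeR, and was 0.28 without sample 8. Npas4, a factor induced in neurons by calcium entry, was at 13.1, 51.8 and 27.6 CPM before and 12.8, 321.8 and 22.1 CPM after the injury. Sample 7 lay just below every pre-injury sample and sample 31 inside the pre-injury range. The log2 fold change of 1.94 ± 0.83 (SE) became -0.82 without sample 8. Fos was at 11.8, 98.1 and 38.2 CPM before and 32.0, 215.2 and 22.5 CPM after. Its fold change of 0.86 ± 0.78 on the log2 scale likewise turned to -0.86 without sample 8. Ptgs2, which encodes the inducible cyclooxygenase COX-2, was at 11.9, 10.5 and 12.9 CPM before and 12.2, 87.1 and 15.1 CPM after, and its log2 fold change was 1.69 ± 0.52 (SE; unadjusted p = 0.00259, adjusted p = 0.780, edgeR), or 0.22 without sample 8.

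**Figure D1:**
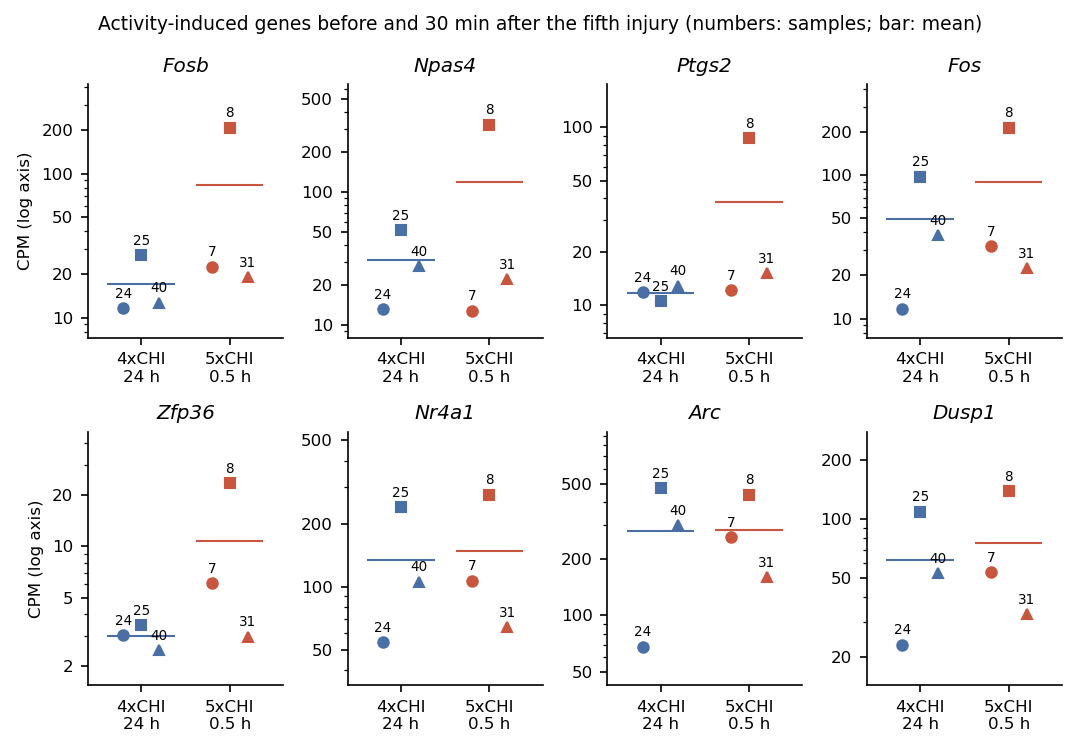
CPM on a log axis of 8 activity-induced genes in the 3 samples 24 h after 4xCHI (blue) and the 3 samples 30 min after 5xCHI (red), with the sample number at each point and a bar at the group mean. Sample 8 is the highest of the 6 for Fosb, Npas4, Ptgs2, Fos, Zfp36, Nr4a1 and Dusp1, samples 7 and 31 lie in or near the pre-injury range, and sample 25 is the highest of its group for all but Ptgs2.

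The upstream sequences of these 4 genes are given because Fos and its relatives are textbook targets of CREB, which binds the cyclic AMP response element. The 250 bases before the RefSeq start of each gene (build GRCm38.p6, gene strand, 5′ to 3′) are in lower case, with each match to the half-site TGACG or its reverse complement CGTCA in capitals. The windows are Fosb at chr7:19310046-19310295, minus strand, Npas4 at chr19:4989972-4990221, minus strand, Fos at chr12:85473640-85473889, plus strand, and Ptgs2 at chr1:150099781-150100030, plus strand.
Fosb: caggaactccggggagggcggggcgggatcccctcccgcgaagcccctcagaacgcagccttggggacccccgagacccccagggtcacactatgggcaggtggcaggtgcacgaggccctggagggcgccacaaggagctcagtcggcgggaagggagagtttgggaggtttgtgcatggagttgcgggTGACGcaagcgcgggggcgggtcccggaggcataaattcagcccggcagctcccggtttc
Npas4: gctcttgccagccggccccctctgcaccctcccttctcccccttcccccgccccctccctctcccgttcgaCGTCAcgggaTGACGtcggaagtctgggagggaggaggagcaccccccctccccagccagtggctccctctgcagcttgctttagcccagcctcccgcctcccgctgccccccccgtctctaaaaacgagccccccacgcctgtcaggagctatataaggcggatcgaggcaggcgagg
Fos: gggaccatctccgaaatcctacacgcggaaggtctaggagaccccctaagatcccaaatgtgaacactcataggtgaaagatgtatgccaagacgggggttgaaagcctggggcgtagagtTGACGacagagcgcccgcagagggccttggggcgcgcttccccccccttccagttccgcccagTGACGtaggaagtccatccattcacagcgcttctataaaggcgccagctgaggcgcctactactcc
Ptgs2: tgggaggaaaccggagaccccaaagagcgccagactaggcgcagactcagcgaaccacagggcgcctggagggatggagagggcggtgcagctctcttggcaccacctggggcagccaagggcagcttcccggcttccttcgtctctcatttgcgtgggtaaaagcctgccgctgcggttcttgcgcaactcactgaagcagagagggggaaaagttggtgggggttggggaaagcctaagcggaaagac
Fosb held 1 match, 60 bases before the start, Npas4 held 2 close together at 179 and 169 bases, Fos held 2 at 129 and 66 bases, and Ptgs2 held 0 in this window. Of 27025 genes with a window, 17.9% held at least 1 match, and of the 35 inducible factors and effectors with a window, 22 did (62.9%). A match is a run of letters and not a measured site, and no relation between matches and levels in these samples was tested.

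Of the samples before the injury, sample 25 also had high values. Nr4a1, an orphan nuclear receptor, was at 54.3, 240.3 and 105.7 CPM before and 107.0, 274.9 and 64.1 CPM after the injury. Arc, a synaptic regulator whose transcript travels to dendrites, was at 68.3, 471.4 and 300.9 CPM before and 260.6, 436.7 and 158.9 CPM after. The groups overlapped for both genes, and their log2 fold changes were 0.16 ± 0.53 and 0.03 ± 0.56 (SE). Without sample 25 the median over the inducible factors was 0.66, with 5 genes higher, and without samples 8 and 25 together, an alternative chosen after the values were seen, it was -0.02, with 0 higher and 0 lower.

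Sample 8 was also the highest of the 6 for 11 of the 21 effectors and 5 of the 12 MAPK feedback genes, where 16.9% of all features were highest in that sample. Of 21 activity-induced effectors, 1 was higher (Ptgs2) and 0 lower, with a median log2 fold change of 0.08. In sample 8, 12 of the 21 lay above every pre-injury sample, and without it the median was -0.05, with 0 higher. Btg2, an antiproliferative gene, was at 102 CPM in sample 8 and at 12.8 to 53.4 CPM in the other 5, and Ccn1, a secreted matricellular protein, was at 64.0 CPM in sample 8 and at 3.90 to 22.7 CPM in the other 5. Arl4d, a small GTPase, was at 11.8, 38.0 and 31.3 CPM before and 30.9, 75.5 and 32.4 CPM after. Of 12 MAPK feedback genes, 0 were higher and 0 lower, with a median of 0.08. That median was -0.03 without sample 8, 0.01 without sample 24 or without sample 40 and 0.12 without sample 25. In sample 31 alone it was -0.28. Dusp1 was at 23.0, 109.3 and 53.3 CPM before and 53.9, 139.1 and 32.8 CPM after.

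Of the 21 inducible factors tested, 1 was higher without overlap of the groups, beside 9.94% of all features. It was Klf4, a zinc finger factor expressed in endothelium among other cells. It was at 5.88, 8.26 and 4.90 CPM before and 11.2, 18.7 and 9.09 CPM after, a log2 fold change of 1.03 ± 0.47 (SE; unadjusted p = 0.0351, adjusted p = 0.780, edgeR). Its relative Klf2 was at 4.23, 7.68 and 4.60 CPM before and 10.8, 16.4 and 6.40 CPM after, with sample 31 inside the pre-injury range. Without sample 8 the 2 log2 fold changes were 0.68 and 0.64.

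Cytokine transcripts were mostly too few to test under the filter used. Of 24 listed cytokines, chemokines and genes of NF-kB feedback, 16 were left out for low counts, and none of these 16 exceeded 2.51 CPM in any of the 6 samples. Il1a, Il1b and Ccl3 were each at 0.495 CPM or less in the other 5 samples and at 2.51, 2.51 and 2.38 CPM in sample 8. Sample 8 was also the highest of the 6 for 11 of 14 microglia markers, and the part of this in the cytokine values was not tested. Of the 8 tested, 2 were higher and 0 lower, with a median of 0.49, or 0 and 0 without sample 8. With the filter built into edgeR 19 of the 24 were tested and with no filter all 24, and in each case 7 were higher and 0 lower, with medians of 1.84 and 1.87, where 3.3% and 2.31% of all features were higher. The genes added by these filters include Il1a, Il1b and Ccl3, read mainly in sample 8, and fits with these filters and without sample 8 were not run. Zfp36, which encodes the RNA-binding protein tristetraprolin that destabilizes cytokine mRNAs, was at 3.02, 3.47 and 2.48 CPM before and 6.10, 23.4 and 2.96 CPM after (log2 fold change 1.85 ± 0.64, SE), and only 0.60 higher on the log2 scale without sample 8. Nfkbiz, an atypical inhibitor protein of NF-kB, was at 3.96, 6.79 and 5.30 CPM before and 8.60, 12.7 and 6.67 CPM after (0.80 ± 0.28, SE).

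The same 30 min step was measured at the first injury (3 samples after 1xCHI against 4 sham-injured) and at the third (3 samples after 3xCHI against 3 taken 24 h after 2xCHI), with no sample in common between the 3 comparisons. At the third injury 7 of the 21 inducible factors were higher at an unadjusted p under 0.05 and 0 lower, where 1.16% and 0.716% of all features were. At the first, 5 were higher and 0 lower, where 13.0% and 6.71% of all features were. After adjustment edgeR called 0 features in either, with 286 (1.88%) and 2997 (19.7%) past an unadjusted p of 0.05. The median log2 fold changes over the list were 0.60 at the first, 0.58 at the third and 0.11 at the fifth injury. The sample number ranges were uneven here too. At the third injury, samples 4 and 5 were in the lower range, and sample 22 and all pre-injury samples in the upper. At the first, samples 13, 14 and sham-injured sample 6 were in the lower range and the others in the upper. Mitochondrial transcripts made up 10.3 and 10.1% of counts in samples 13 and 14, 7.10% in sample 27 and 6.09 to 6.89% in sham-injured samples. The part of this in the values of either step was not tested.

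At each of these steps the values differed widely between mice. Fosb was at 61.1, 116.2 and 12.9 CPM in the 3 samples after the first injury, at 172.2, 24.3 and 227.3 CPM after the third and at 22.5, 207.5 and 19.1 CPM after the fifth. The low sample after the first injury lay inside the sham-injured range of 7.97 to 21.9 CPM. For Npas4 the values were 39.9, 26.6 and 12.3 CPM, which overlap the sham-injured range of 15.5 to 38.6 CPM, then 466.4, 14.5 and 556.2 CPM, then 12.8, 321.8 and 22.1 CPM. The difference between the fifth and the third step was -2.78 ± 1.16 (SE) on the log2 scale for Npas4 (unadjusted p = 0.0233) and -1.57 ± 1.05 for Fosb (unadjusted p = 0.146), both with an adjusted p of 1.00 from edgeR. Over the inducible factors, 0 were higher and 3 lower in this difference, where 0.939% and 1.32% of all features were. Against the first step, the unadjusted p of the difference from edgeR was 0.883 for Fosb. Over the inducible factors 0 were higher and 1 lower in that difference, with a median of -0.31. In either difference 0 features passed the adjusted test, with 344 (2.26%) and 739 (4.85%) past an unadjusted p of 0.05. Later after the fifth injury Fosb was at 8.29, 27.5 and 8.31 CPM at 4 h and at 7.94 to 12.3 CPM at 24 h, so that sample 8 was not matched, but 1 sample at 4 h lay above samples 7 and 31.

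**Figure D2:**
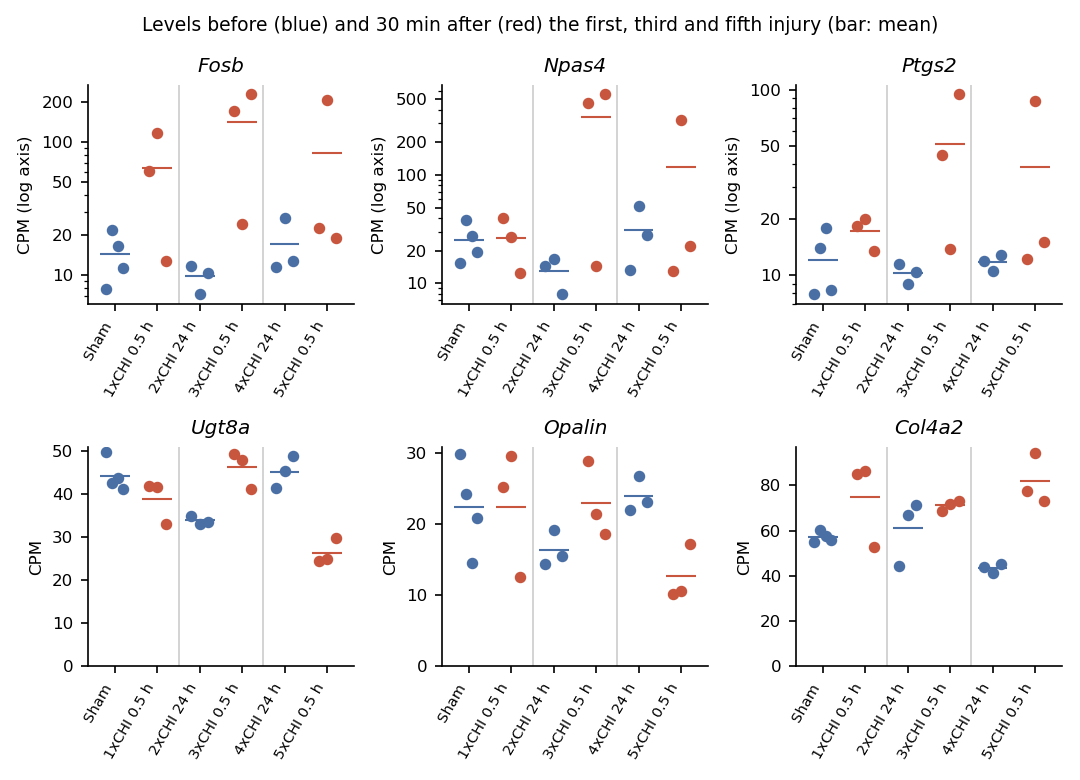
CPM of 6 genes in every sample before (blue) and 30 min after (red) the first, the third and the fifth injury, with a bar at each mean. Fosb, Npas4 and Ptgs2 (log axes) are highest in 2 samples after the third injury and in sample 8 after the fifth, while after the first injury Npas4, at 12.3 to 39.9 CPM, overlaps the sham-injured samples at 15.5 to 38.6 CPM. Ugt8a is at 24.4 to 29.8 CPM after the fifth injury and at 33.2 CPM or more in every other group shown, and Col4a2 is lowest, at 41.5 to 45.1 CPM, in the 3 samples before the fifth injury, apart from 1 sample 24 h after 2xCHI at 44.5 CPM.

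Mature oligodendrocyte markers were mostly lower after the fifth injury than before it, with none past the adjusted test. All 12 listed markers were tested, 6 were lower at an unadjusted p under 0.05 (among them Ugt8a, Aspa, Opalin, Cnp and Ermn) and 0 higher, beside 2.84% and 3.52% of all features. The levels of 7 of the 12 were lower in each of the 3 samples than in any pre-injury sample, beside 9.72% of all features. Sample 25 was the highest of the 6 for 10 of the 12, where 16.1% of all features were highest in that sample. The median log2 fold change was -0.49, and the 12 single values lay between -0.91 and -0.08. The levels of 7, 9 and all 12 markers in samples 7, 8 and 31 lay below every pre-injury sample, beside 27.6, 28.7 and 28.4% of all features. The summed level of the list, which its most abundant members set, was 5175.2 to 7117.9 CPM before and 4406.9 to 5565.4 CPM after, with sample 7 inside the pre-injury range.

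Ugt8a, the enzyme that makes the myelin lipid galactosylceramide, was at 41.5, 45.5 and 49.0 CPM before and 24.4, 25.0 and 29.8 CPM after the injury, a log2 fold change of -0.78 ± 0.22 (SE, n = 3 and 3; unadjusted p = 0.00129, adjusted p = 0.780, edgeR). Aspa, which breaks down N-acetylaspartate and supplies acetate to lipid synthesis, was at 14.7, 16.8 and 18.8 CPM before and 10.6, 7.71 and 10.3 CPM after (-0.81 ± 0.25, SE). Opalin, a membrane protein of myelinating cells, was at 21.9, 26.8 and 23.1 CPM before and 10.2, 10.6 and 17.2 CPM after (-0.91 ± 0.34, SE). For none of these 3 genes did the groups overlap. Cnp, an enzyme of non-compact myelin, was at 256.4, 327.9 and 284.4 CPM before and 222.2, 202.5 and 194.5 CPM after. Ermn, a cytoskeletal protein of the myelin sheath, was at 72.4, 79.3 and 73.7 CPM before and 58.9, 52.7 and 49.9 CPM after. Cnp shares 8912 bases with Dnajc7 and Ermn 748 bases with Galnt5 on the other strand, so reads could be mixed where counting did not use strand. Mobp, an abundant myelin protein, was at 769.0 to 1161.9 CPM before and 682.6 to 1072.1 CPM after, so its groups overlapped widely (log2 fold change -0.08 ± 0.22, SE).

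**Figure D3:**
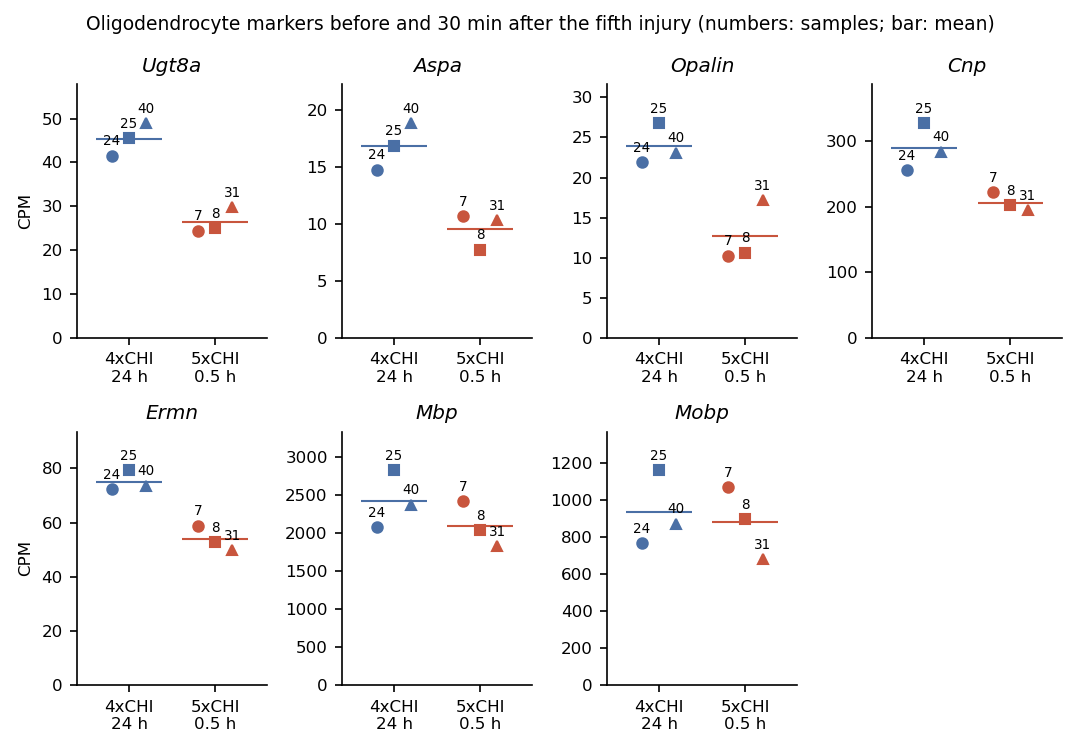
CPM of 7 oligodendrocyte markers in the 3 samples 24 h after 4xCHI (blue) and the 3 samples 30 min after 5xCHI (red), on axes from 0, with sample numbers and a bar at each mean. The groups do not overlap for Ugt8a, Aspa, Opalin, Cnp and Ermn and overlap for Mbp and Mobp.

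The marker levels were also read within the ranges of sample numbers. In sample 31 alone against the 3 pre-injury samples, the median over the 12 markers was -0.60. With the ranges 1 to 18 and 19 to 40 as a covariate it was -0.64, with 9 markers lower. Leaving out single samples left 3 to 8 markers lower: 3 without sample 8, 3 without sample 25 and 4 without sample 31. Precursor cells gave no such count, with 0 of 10 markers higher or lower and a median of -0.16. Without sample 7, 1 of the 10 was lower, and 2 were when only the groups compared entered the fit. Olig1, shared by precursors and mature cells, was at 84.1 to 105.5 CPM before and 69.5 to 88.8 CPM after. Sample 31, which also stood apart in choroid plexus and mitochondrial transcripts, had the lowest value of the 6 for 8 of the 12 mature and 7 of the 10 precursor markers, and for 9 of the 12 astrocyte markers, where 18.4% of all features were lowest in that sample. In sample 31 alone the median was -0.45 over the precursor markers and -0.24 over the astrocyte markers, with all 12 of the latter below 0, whereas in samples 7 and 8 alike 7 astrocyte markers lay above and 1 below every pre-injury sample. The part of these differences in the lower mature markers was not tested, and without sample 31 the mature markers had a median of -0.44.

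At the third injury the median log2 fold change of the same markers was 0.36, with 1 of 12 higher at an unadjusted p under 0.05 and 0 lower, and at the first injury it was -0.01, with 0 higher and 0 lower. The uneven sample number ranges at these steps apply here too. Between the fifth and the first step the difference had a median of -0.47. Of the 12 markers 1 was lower and 0 higher at an unadjusted p under 0.05, beside 4.85% of all features in either direction. The difference between the fifth and the third step had a median of -0.83, with 8 of 12 markers lower at an unadjusted p under 0.05 and 0 higher, beside 1.32% and 0.939% of all features. For Ugt8a this difference was -1.23 ± 0.31 (SE), with an unadjusted p of 0.000405 but an adjusted p of 1.00 from edgeR. When only the 4 groups concerned entered the fit, 2 features passed: Ugt8a (adjusted p = 0.00841) and Gpr37, a receptor of oligodendrocytes named here after its values were seen (log2 difference -0.83, adjusted p = 0.0288). The levels behind this include a low start at the third step: Ugt8a was at 33.2 to 35.0 CPM 24 h after 2xCHI, 41.2 to 49.5 CPM 30 min after 3xCHI and 41.2 to 49.8 CPM in sham-injured mice. After the fifth injury it was at 35.1 to 47.9 CPM at 4 h and at 19.2 to 43.3 CPM at 24 h, so the 4 h samples lay above and the 24 h samples overlapped the 30 min values.

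**Figure D4:**
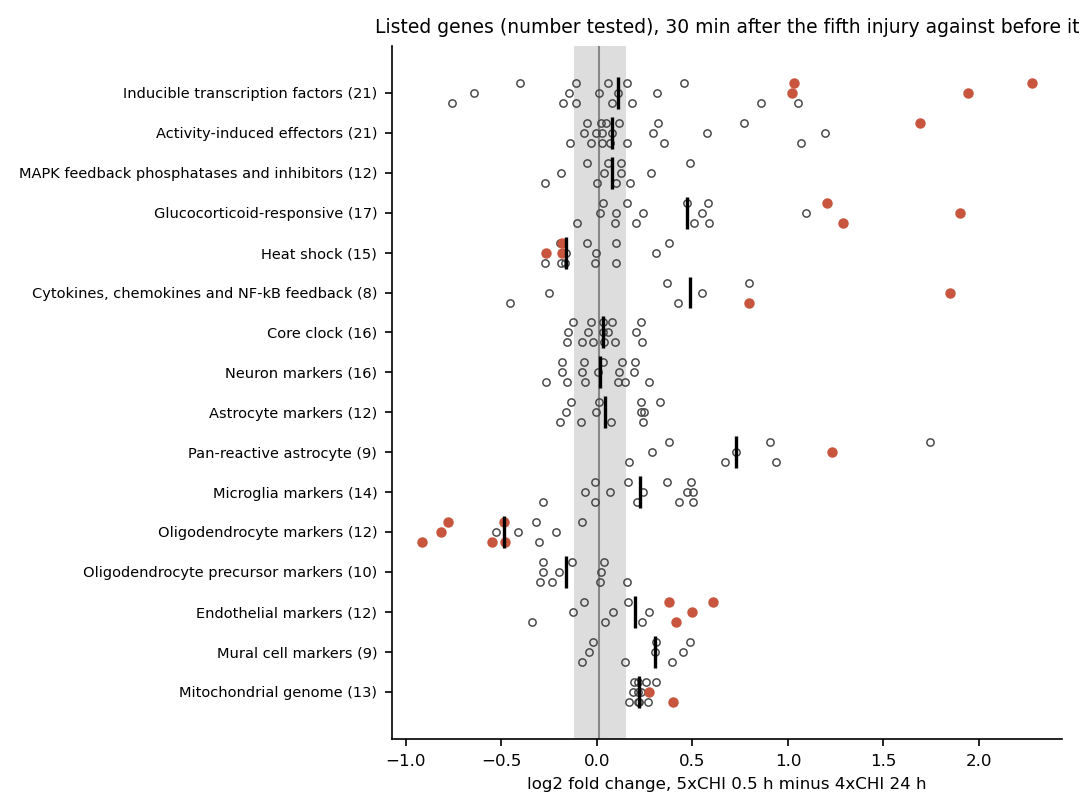
The log2 fold change from edgeR of each tested gene of 16 lists, 30 min after the fifth injury against before it, with filled points for an unadjusted p under 0.05, a black bar at the list median, and a grey band between the quartiles of all 15224 features (-0.12 to 0.15). Oligodendrocyte markers lie to the left with a median of -0.49, and the inducible factors are centred at 0.11 with 4 filled points at 1.02 to 2.28.

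Glucocorticoid-responsive genes, which respond to stress hormone, were read in a list of 18. Of these, 17 were tested, and 3 were higher and 0 lower, with a median log2 fold change of 0.47. Plin4, a lipid droplet protein, was at 5.66, 5.42 and 4.80 CPM before and 28.9, 25.7 and 4.90 CPM after, so that samples 7 and 8 lay far above and sample 31 within the pre-injury values. Sult1a1, a sulfotransferase, was at 7.09, 6.00 and 7.33 CPM before and 20.6, 20.4 and 8.93 CPM after. Hif3a was at 5.22, 6.89 and 6.53 CPM before and 18.8, 14.5 and 9.79 CPM after, without overlap. Their log2 fold changes were 1.90 ± 0.78, 1.29 ± 0.45 and 1.20 ± 0.45 (SE). In sample 31 alone the median of the list was -0.12, and without sample 7 the count was 1, with a median of 0.19, while without sample 24 the median was 0.21. It was 0.63 without sample 31, 0.26 with the sample number ranges as a covariate and 0.25 with 1 surrogate variable. When only the groups compared entered the fit, 8 were higher. Of 13 pan-reactive astrocyte genes 9 were tested, 1 was higher and 0 lower, with a median of 0.73. The count was 0 without sample 7 or without sample 25, and the median was 0.43 without sample 8, 1.15 without sample 31, 0.20 with the sample number ranges as a covariate and -0.03 in sample 31 alone. The higher gene, Osmr, the oncostatin M receptor, was at 3.30, 1.89 and 3.07 CPM before and 9.30, 6.90 and 3.23 CPM after. Gfap, the astrocyte filament, was at 199.5, 149.8 and 246.3 CPM before and 321.3, 559.4 and 106.7 CPM after, on either side of the pre-injury range.

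Of 15 heat shock genes, the chaperones that hold proteins in shape, 0 were higher and 3 lower, with a median of -0.16. Hspd1, the mitochondrial chaperonin, was at 169.2, 184.2 and 162.4 CPM before and 134.1, 137.8 and 156.3 CPM after (log2 fold change -0.27 ± 0.09, SE). Hsp90ab1 and Hsp90aa1, the cytosolic HSP90 proteins, differed by -0.18 ± 0.07 and -0.18 ± 0.08 (SE), and the groups overlapped for Hsp90aa1. The stress-inducible Hspa1a was at 17.1 to 21.9 CPM before and 17.4 to 20.7 CPM after. Without sample 7 only 1 of the 15 was lower, with a median of -0.09, without sample 8 the median was -0.10, and in sample 31 alone it was -0.01, with 0 lower.

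Among endothelial markers 4 of 12 were higher and 0 lower, with a median of 0.20. The count was 0 without sample 7, without sample 40 or with the sample number ranges as a covariate, and 2 without sample 8 or without sample 24. The median was 0.04 without sample 40, 0.07 without sample 7, 0.40 without sample 24 and -0.04 in sample 31 alone. Ly6c1 was at 23.1, 22.6 and 17.4 CPM before and 32.1, 28.2 and 28.7 CPM after (0.50 ± 0.22, SE), and Esam, a junction protein, was at 12.2, 13.2 and 9.06 CPM before and 14.9, 14.7 and 15.1 CPM after (0.38 ± 0.17, SE). Mfsd2a, a lipid transporter of the blood-brain barrier, was at 12.5, 13.2 and 13.7 CPM before and 25.2, 22.8 and 12.3 CPM after, with sample 31 below all 3 pre-injury samples. Slc2a1, the glucose transporter of the barrier, was at 62.2, 74.3 and 54.3 CPM before and 110.9, 76.9 and 66.3 CPM after. Cldn5, which defines brain endothelial tight junctions, was at 19.3 to 45.9 CPM before and 30.1 to 34.8 CPM after.

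All 13 protein-coding genes of the mitochondrial genome had values above 0 on the log2 scale, with 2 past an unadjusted p of 0.05, both higher, and a median of 0.22. All 13 were highest in sample 31. mt-Nd5 was at 2568.2, 2056.0 and 2400.1 CPM before and 2636.6, 2785.6 and 3840.1 CPM after, and mt-Co1 was at 14993.3, 16596.9 and 16091.9 CPM before and 17412.1, 18617.5 and 21530.9 CPM after. Without sample 31 the median was 0.11, with 0 genes higher, and without sample 25 it was 0.25, also with 0 higher. With GC and length trends removed it was 0.12, with 10 genes above 0. Of 36 nuclear genes of respiratory complex I, 0 were higher and 1 was lower (Ndufs1, at 144.0 to 152.7 CPM before and 116.9 to 122.4 CPM after), with a median of 0.08. Sample 31 was the highest of the 6 for 27 of the 36, and the median was 0.0054 without it, -0.01 with GC and length trends removed and -0.07 with the sample number ranges as a covariate.

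The other lists gave no gene past an unadjusted p of 0.05. These were core clock genes (16 tested, median 0.03), neuron markers (16, 0.02), astrocyte markers (12, 0.04), microglia markers (14, 0.23), mural cell markers (9, 0.31), meningeal fibroblast markers (12, -0.01), choroid plexus markers (4, 0.74), hemoglobin (5, -0.05), neutrophil markers (2, 0.21), markers of the adjacent striatum (10, 0.02) and cytosolic ribosomal proteins (76, 0.11). The choroid plexus median turned to -2.16, with 2 of 4 lower, without sample 31 and was 2.88, with all 4 higher, without sample 24. Leaving out 1 sample gave a few genes past an unadjusted p of 0.05: 1 astrocyte marker higher, 1 neuron marker lower and 2 ribosomal proteins lower without sample 31, 1 ribosomal protein lower without sample 24, 1 microglia marker lower without sample 25 and 1 neuron marker higher without sample 40. It also moved medians, given here at their furthest from the reported value: without sample 25 that of the mural cell markers was 0.02, of the meningeal markers -0.37 and of hemoglobin 0.32, without sample 7 that of the striatal markers was -0.37, without sample 8 those of the microglia and neutrophil markers were 0.12 and 0.04, and without sample 31 that of the ribosomal proteins was 0.04. With the sample number ranges as a covariate the medians were -0.08 for ribosomal proteins, -0.04 for microglia and 0.77 for striatal markers. The most abundant members of these lists overlapped between the groups, as in the astrocyte glutamate transporter Slc1a2 (2347.2 to 2571.2 CPM before, 2127.5 to 2921.6 CPM after) and the microglial growth factor receptor Csf1r (69.7 to 86.8 CPM before, 61.9 to 100.2 CPM after). The exception was Csf3r, a granulocyte receptor that microglia also carry, at 4.16 to 4.55 CPM before and 5.00 to 7.65 CPM after.

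Genes were also named by their p-values. The 12 leading genes in each direction, taken among those with a mean of at least 1 CPM and no overlap of the groups, were Col4a2, Runx2, Akap13, Anxa11, Lin28b, Helz2, Kcnt1, Col4a1, Hps5, Arhgef25, Bmp1 and Cchcr1 on the higher side and Mex3d, Slain1, Olfml1, Zfp87, Hs6st2, Hhip, Kctd7, Acot6, Fam136a, Ugt8a, Ttc30b and AC115119.1 on the lower side. Their log2 fold changes were 0.42 to 1.04 and -1.35 to -0.38. Since the rule requires groups that do not overlap and small p-values, their separation is a description of the choice.

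Col4a1 and Col4a2 encode the 2 chains of the main collagen of basement membranes and lie head to head on chromosome 8, at 11198423 to 11312826 and 11312805 to 11449287 (GRCm38, GENCODE M21), sharing 22 bases on opposite strands. Col4a2 was at 43.8, 41.5 and 45.1 CPM before and 77.7, 94.4 and 73.2 CPM after the injury (log2 fold change 0.91 ± 0.21, SE; unadjusted p = 0.000139, adjusted p = 0.696, edgeR), and Col4a1 was at 41.0, 32.8 and 34.6 CPM before and 55.8, 70.6 and 54.5 CPM after (0.74 ± 0.20, SE). The pre-injury samples were themselves low. Col4a2 was at 54.8 to 60.4 CPM in the 4 sham-injured samples, above all 3 samples taken 24 h after 4xCHI, and at 62.6 to 67.5 CPM 4 h after 5xCHI. Bmp1, a protease that trims procollagens, had the same order: it was at 52.6, 55.5 and 66.0 CPM before, at 105.7, 104.8 and 104.6 CPM after, and at 66.7 to 73.8 CPM in sham-injured mice.

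Akap13, a kinase-anchoring scaffold, was at 33.3, 25.0 and 34.2 CPM before and 52.1, 57.3 and 55.1 CPM after (0.83 ± 0.20, SE). Kcnt1, a sodium-activated potassium channel of neurons, was at 126.6, 119.5 and 154.3 CPM before and 227.1, 216.9 and 204.9 CPM after (0.70 ± 0.18, SE). Lin28b, which blocks the processing of let-7 microRNAs, was at 3.08, 3.37 and 4.11 CPM before and 7.09, 7.09 and 7.53 CPM after (1.04 ± 0.27, SE). Runx2, a transcription factor known from bone, was at 7.92, 6.79 and 9.11 CPM before and 11.5, 16.4 and 11.9 CPM after. Its gene overlaps Supt3 on the other strand, with the same limit as for Cnp.

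Mex3d, an RNA-binding protein, had the smallest p of all features. It was at 13.5, 15.9 and 18.0 CPM before and 10.9, 8.97 and 9.63 CPM after the injury, a log2 fold change of -0.69 ± 0.13 (SE; unadjusted p = 1.14e-05, adjusted p = 0.173, edgeR), and -0.63 without sample 8. Sham-injured mice had 11.4 to 15.1 CPM. Slain1, which promotes microtubule growth, was at 47.2, 56.2 and 48.7 CPM before and 32.9, 33.0 and 37.9 CPM after (-0.55 ± 0.14, SE). Olfml1 was at 8.58, 8.00 and 7.77 CPM before and 4.94, 4.96 and 4.79 CPM after (-0.73 ± 0.19, SE), and Hs6st2, which sulfates heparan sulfate chains, was at 39.0, 38.5 and 30.7 CPM before and 23.2, 22.6 and 27.8 CPM after.

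**Figure D5:**
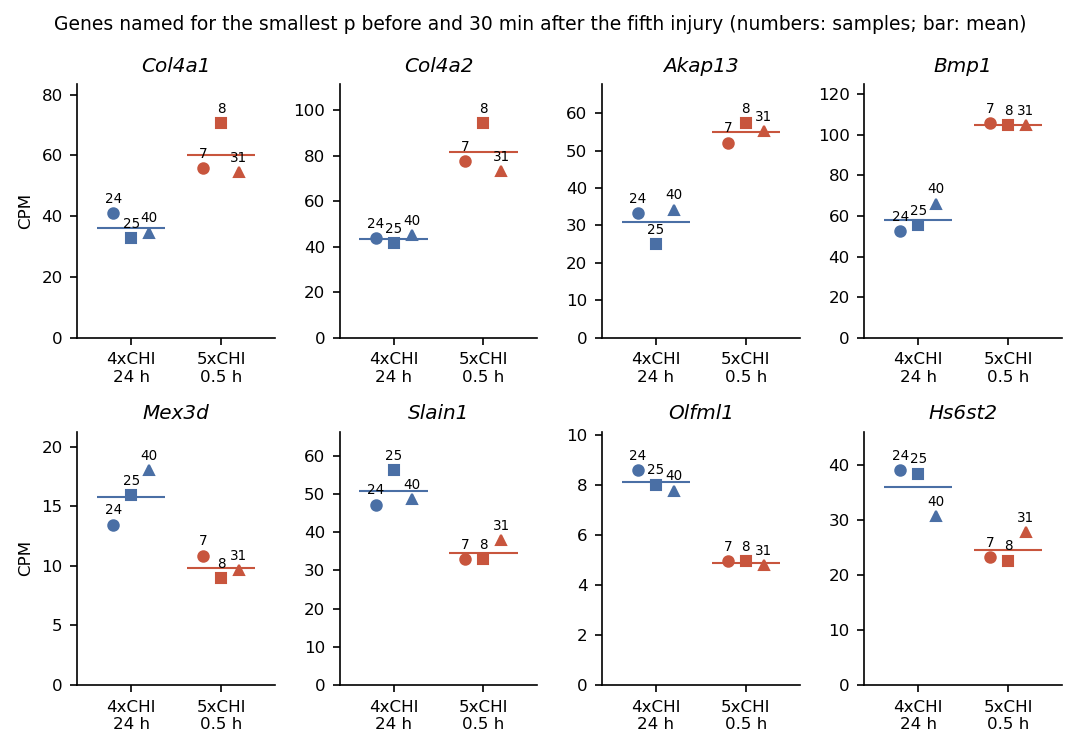
CPM of 4 genes from the higher and 4 from the lower side of the genes with the smallest p-values, in the 3 samples 24 h after 4xCHI (blue) and the 3 samples 30 min after 5xCHI (red), on axes from 0 with sample numbers and a bar at each mean. The groups do not overlap for any of the 8, which the choice of genes requires.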

How the data were processed

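RNA of 40 left somatomotor cortices was extracted with a Qiagen kit and sequenced by a company. The authors deposited expected counts per gene (estimated counts, not always whole, in salmon's gene-level layout), without normalization. Version and parameters of the upstream tools are not given in the sources used here. Gene identifiers were those of GENCODE M21 on GRCm38, which all 55536 mouse features matched. Counts were rounded here. The study left out 1 sample, and sample 30 (3xCHI, 4 h) was left out here, since that group is 1 smaller in the study's sample sizes, which do not name the sample. A feature was dropped where over 4 of the other 39 samples had under 10 counts, and 15224 remained. A model of the 12 group means was fitted with edgeR 4.0.16 in R 4.3.3 (TMM, quasi-likelihood test), with a Benjamini-Hochberg adjusted p under 0.05 as the threshold. CPM values use TMM-scaled library sizes. Whether counting used strand is not given in the sources used here, and beside the genes noted in the text, Dusp1, Hspa1a, Gpr17, Csf1r, Hspd1, Sult1a1, Plin4, mt-Nd5 and Cyp51 overlap a gene on the other strand, and Zfp87 one on its own strand.

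Alternatives were DESeq2 1.42.0, other filters and scalings, other sets of samples, sva 3.50.0 (1 surrogate variable), the sample number range as a covariate and leaving out each sample. Removing GC and length trends and leaving out samples 8 and 25 together were added after the values were seen. The samples compared and the gene lists were chosen with earlier results of these data known. Genes named were members of the activity-induced lists, up to 12 others per direction by the rule given with them, listed genes with an unadjusted p under 0.05 or else the 2 most abundant, and the human transgenes. Some items that these rules select are not reported here. Nothing in the labels ties a sample to a cage or litter, so p-values measure the spread between samples. That spread, and each SE, was estimated from all 39 samples of the fit and not from the 6 compared alone. Simulated data for this comparison had 15095 features tested. In them edgeR recovered 77% of 100 genes changed by 1 and 96% of 100 changed by 2 on the log2 scale, with 7 false calls. These rates do not carry over to genes that varied as widely between mice as Fosb. Its log2 fold change of 2.28 ± 0.76 (SE) had an adjusted p of 0.780 from edgeR. The 0 calls therefore do not show that changes of these sizes were absent.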

Additional observations from a re-analysis of the deposited data

How the results depend on the processing

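For the fifth injury, 0 adjusted calls were made under every alternative but 2: DESeq2 called 1 feature (Mex3d), and the fit with only sample 31 after the injury called 1 (Gm3055, a predicted gene named after its value was seen), in a fit where the lone sample is assumed to vary like the other groups. The numbers with an unadjusted p under 0.05 (536 higher, 433 lower) were 1075 and 1046 when only the 2 groups compared entered the fit, 248 and 287 with only sample 31, and 315 and 215 without samples 8 and 25, and with 1 surrogate variable 690 were lower. Leaving out single samples gave 293 to 563 higher and 267 to 494 lower. Of the differences between injuries, only that from the third had calls, 2 with only the 4 groups concerned. At an unadjusted p under 0.05 the alternatives other than leaving out samples gave 93 to 344 higher and 209 to 421 lower for the third (143 and 201 as reported), and 193 to 628 and 258 to 790 for the first (284 and 455). With single samples left out, these were 112 to 156 and 193 to 230 for the third, and 177 to 367 and 234 to 712 for the first. Of 84 named genes, 22 changed sign under at least 1 alternative, of which 7 had a reported value larger than its standard error. With only sample 31, the log2 fold change was -0.50 for Npas4, -1.15 for Fos, -0.031 for Zfp36, -0.53 for Ccn1, -0.13 for Plin4 and -0.11 for Mfsd2a, and without samples 8 and 25 it was -0.24 for Npas4. Leaving out single samples moved Npas4 between -0.82 and 2.52, Fos between -0.86 and 1.83, Ccn1 between -0.35 and 2.02 and Gadd45g between -0.046 and 1.47, each lowest without sample 8. The cause was not tested. The median of the oligodendrocyte markers was -0.64 to -0.38 under all alternatives. No paired analysis was possible because the groups share no replicate number. At 3 samples against 3, the median standard error of a log2 fold change was 0.17.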

Other observations

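Cholesterol synthesis, on which myelin depends, was read in a list of 22 enzymes and regulators put together after the values were seen, so its counts are a description. All 22 were tested, 6 were lower at an unadjusted p under 0.05 (Sqle, Idi1, Insig1, Cyp51, Msmo1 and Hmgcs1) and 0 higher, and the median log2 fold change was -0.26. Sqle, which makes the first oxygenated sterol precursor, was at 51.8, 51.0 and 56.1 CPM before the fifth injury (samples 24, 25 and 40) and 33.6, 33.1 and 40.0 CPM after it (samples 7, 8 and 31). Hmgcs1, an early enzyme of the pathway, was at 291.2, 266.2 and 309.0 CPM before and 163.7, 193.2 and 251.7 CPM after. Sample 31 was the nearest of the 3 to the pre-injury values for Sqle, Hmgcs1, Idi1, Insig1, Cyp51 and Msmo1, and with only sample 31 the median was -0.10, with 0 lower. The count was 1 without sample 7, without sample 8, without sample 40 or with the sample number ranges as a covariate, and 13 when only the 2 groups compared entered the fit.

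Genes of newly formed oligodendrocytes and of basement membranes were listed in the same way. Of 16 oligodendrocyte genes 3 were lower and 0 higher. Their median log2 fold change was -0.12, with 7 genes above 0 and 9 below. Without sample 31 the median was -0.04, with 8 above and 8 below. Gpr37 was at 61.7, 65.8 and 62.4 CPM before and 42.5, 40.5 and 40.8 CPM after, Tmem88b was at 51.9, 65.4 and 55.7 CPM before and 35.1, 33.6 and 35.5 CPM after, and Enpp6 was at 7.16 to 10.5 CPM before and 4.58 to 6.45 CPM after. Gpr17, a marker of committed precursors, was at 37.4, 37.2 and 38.3 CPM before and 43.1, 45.4 and 26.2 CPM after. Of 26 basement membrane genes 24 were tested, with 4 higher (Col4a1, Col4a2, Agrn and Pxdn) and 0 lower and a median of 0.16. Without sample 8 or without sample 24 the count was 2, with the sample number ranges as a covariate 2 were higher and 1 lower, and without sample 25 the median was -0.04. Pxdn, a peroxidase that crosslinks collagen IV, was at 32.9, 42.0 and 38.7 CPM before and 59.0, 66.3 and 55.3 CPM after, while the laminin gene Lama4 was at 8.16 to 9.90 CPM before and 5.60 to 8.95 CPM after.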
